A study of Mus musculus with 2 samples.

Results

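Tekt1, Cfap46, Cfap58 and Dnah3 are 4 genes of the motile cilium and its axoneme among the 158 genes that the authors listed as higher in mouse neural stem cells carrying an shRNA against Nap1l1. They were chosen by symbol from a table of genes selected on their counts in these same 2 libraries, so that their higher counts are how they came to be members and are given here as a description, with no test. The cells came from the brain of ICR mouse embryos at embryonic day 12, were cultured for 1 day in proliferation medium, and then received a lentivirus with Nap1l1-shRNA1 or with the Piscor plasmid, named as control in the series title. An shRNA is a short hairpin RNA made to lower the mRNA it matches, and Nap1l1 encodes a nucleosome assembly protein that chaperones histones. Both groups were thus infected cultures that differed in the construct, with 1 library per group and 1 hairpin. The number of embryos behind each culture is not given in the sources used.

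The axoneme is the microtubule core of a motile cilium or sperm tail, a ring of doublet microtubules around a central pair. Dynein arms on the doublets slide neighbouring doublets past each other, and the central apparatus takes part in controlling the beat. In the brain, motile cilia are a feature of ependymal and choroid plexus cells, whereas neural stem cells of the embryo carry a single primary cilium. The transcription factors Foxj1 and those of the RFX family are known to switch on genes of motile cilia. Tekt1 encodes a tektin, a filament protein of the doublets, Cfap46 a protein of the central apparatus, Cfap58 a coiled-coil protein known from the sperm tail, and Dnah3 a heavy chain of the inner dynein arms, the ATP-driven motor. The gene ontology terms in the authors' deposited table give Cfap46 the axoneme, Cfap58 the cilium and Dnah3 the inner dynein arm, while those of Tekt1 name microtubules and the nucleus.

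Sequence before a RefSeq start (GRCm38.p6) was matched for 3 of the 4 genes, and not for Dnah3. It is shown because a similar run of bases was seen in these 3 when the sequences were read. The pattern that marks this run was written afterwards, so its matches here are a description. RFX factors bind the X-box, an inverted repeat whose half-site is GTTGCC. Each stretch below is 120 bases long, reads 5′ to 3′ along the gene's strand, and ends with the last base of a match, in capitals, to a spaced X-box-like pattern: GTTGCC, a gap of 2 or 3 bases, then G, any pair of bases and AC, on either strand. In Cfap46 the match is on the opposite strand, so that its half-site is printed as its reverse complement, GGCAAC. The stretches are chr11:72361884-72362003 (minus strand), chr7:139683819-139683938 (minus strand) and chr19:47937546-47937665 (plus strand). The Tekt1 stretch precedes a RefSeq start at 72361882 that lies inside the gene, whose end in the table is 72362442, and it overlaps no annotated exon of Tekt1.
Tekt1: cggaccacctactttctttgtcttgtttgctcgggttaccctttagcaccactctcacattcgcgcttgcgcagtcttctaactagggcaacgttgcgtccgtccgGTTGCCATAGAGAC
Cfap46: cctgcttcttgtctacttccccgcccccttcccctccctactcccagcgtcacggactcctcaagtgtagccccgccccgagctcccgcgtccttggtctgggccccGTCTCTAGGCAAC
Cfap58: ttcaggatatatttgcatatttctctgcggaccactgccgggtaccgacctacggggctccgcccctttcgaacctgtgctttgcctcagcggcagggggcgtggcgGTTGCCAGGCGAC

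The match began 15 bases before the RefSeq start of Tekt1, 16 bases before that of Cfap46 and 59 bases before that of Cfap58. The half-site alone, on both strands, occurred 2 times in the 250 bases before that start of Tekt1 and 1 time each before Cfap46 and Cfap58. A second RefSeq start of Tekt1 held neither the half-site nor the spaced pattern. Over all 32851 RefSeq windows of 250 bases, 3425 (10.4%) held the half-site and 460 (1.40%) the spaced pattern. A window was matched for 83 of the 158 listed genes. Of their 98 windows, 16 (16.3%) held the half-site and 3 (3.06%) the spaced pattern, and these 3 were the windows of Tekt1, Cfap46 and Cfap58. The half-site was taken from textbook knowledge, but the spacing was written down after these sequences had been read. The matches in these 3 genes are fixed by the way the pattern was made. The last count, 3 of 98 windows, could thus not be lower, and its share cannot be compared with that of all windows. A match is a run of letters, and no binding was measured.

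All 4 genes had few reads, and each had more in the shRNA library than in the control. The libraries held 8777836 reads (Nap1l1-shRNA1) and 8325166 reads (Piscor control), the totals that the deposited CPM values imply, so that 1 read was 0.114 and 0.12 CPM (counts scaled to the library total). Intervals on reads are exact 95% Poisson intervals, and those on ratios are exact 95% conditional binomial (Clopper-Pearson) intervals. Both cover counting error only, since there was no replicate and reads copied by PCR from 1 molecule are not independent. A higher count in these bulk cultures cannot tell more cells of a type from more RNA per cell. The targeted gene's own values were not analysed here, so the label of the shRNA library was not checked against them.

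Tekt1 (ENSMUSG00000020799, chromosome 11, 72344722 to 72362442, minus strand) was counted with 21 reads after Nap1l1-shRNA1 (13.0 to 32.1) and 9 with Piscor (4.12 to 17.1). These were 2.39 and 1.08 CPM, a ratio of 2.21 (0.972 to 5.49). The shRNA library was thus the higher one for this doublet filament gene, but the interval of the ratio included 1. Its read intervals in the 2 libraries overlapped.

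Cfap46 (ENSMUSG00000049571, chromosome 7, 139600951 to 139683817, minus strand), the central apparatus gene, had the most reads of the 4, with 35 after Nap1l1-shRNA1 (24.4 to 48.7) and 16 with Piscor (9.15 to 26.0). These were 3.99 and 1.92 CPM, a ratio of 2.07 (1.12 to 4.01), the smallest ratio and the narrowest interval of the 4. The interval lay above 1, although the 2 read intervals overlapped slightly. Cfap46 also ranked 5 among all 158 listed genes by its reads in both libraries together, against 27 for Tekt1 and 106 for each of Cfap58 and Dnah3.

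Cfap58 (ENSMUSG00000046585, chromosome 19, 47937712 to 48035379, plus strand) was counted with 7 reads after Nap1l1-shRNA1 (2.81 to 14.4) and 1 with Piscor (0.0253 to 5.57). These were 0.797 and 0.12 CPM, a ratio of 6.64 with an interval from 0.853 to 299. The ratio was larger than those of Tekt1 and Cfap46, but it rested on 1 control read and its interval included 1. Dnah3 (ENSMUSG00000052273, chromosome 7, 119922717 to 120095177, minus strand) had the same pair of counts, 7 and 1, and therefore the same CPM, ratio and interval. Such a pair was common in the table: 16 listed genes had exactly 7 reads against 1.

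**Figure D1:**
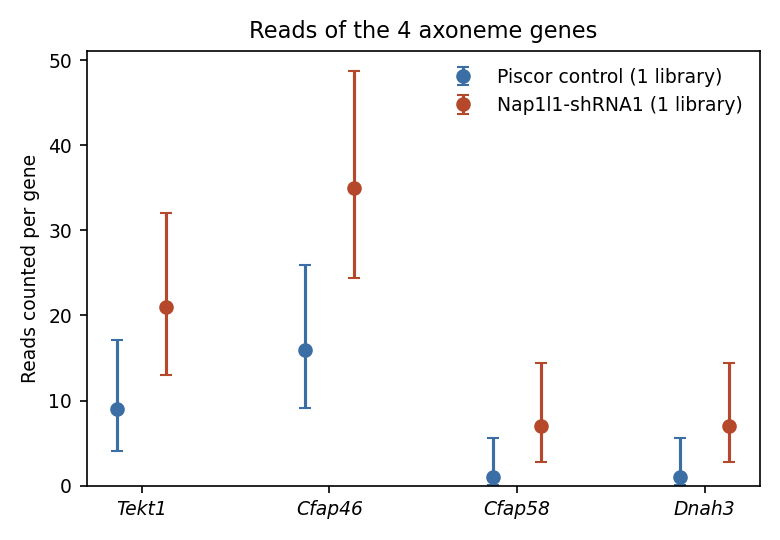
Reads counted for each of the 4 genes (vertical axis) in the Piscor control library (blue) and the Nap1l1-shRNA1 library (red), 1 library each; points are counts and bars exact 95% Poisson intervals. The red point lies above the blue one for each gene, from 35 against 16 for Cfap46 to 7 against 1 for Cfap58 and Dnah3, and the bars overlap for every gene.

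The 4 genes together had 70 reads after Nap1l1-shRNA1 (54.6 to 88.4) and 27 with Piscor (17.8 to 39.3). Their summed levels were 7.97 and 3.24 CPM, and the pooled ratio was 2.46 (1.56 to 3.99). Tekt1 and Cfap46 held most of the sum, with 56 of the 70 reads and 25 of the 27. Cfap46 alone gave 50% of the members' reads after Nap1l1-shRNA1 and 59.3% with Piscor. Leaving out 1 gene at a time gave pooled ratios from 2.30, without Cfap58 or without Dnah3, to 3.02 without Cfap46, and each of these intervals lay above 1. Because each gene was listed for a higher count in these libraries, the pooled ratio above 1 follows from the choice of genes and is no independent estimate.

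The ratios fell into a lower pair and a higher pair, but counting error was too wide to separate them. Tekt1 and Cfap46 together had a ratio of 2.12 (1.30 to 3.55), and Cfap58 and Dnah3 together had 14 reads against 2, a ratio of 6.64 (1.52 to 60.2). This pairing was made after the values were seen. It also follows the control counts, since no listed gene with 1 control read had a ratio below 6.64. The ratio of the second pair was 3.13 times that of the first, with an exact 95% interval from 0.634 to 30.1. Between single genes, the ratio of Cfap58 or of Dnah3 was 3.2 times that of Cfap46 (0.354 to 153) and 3 times that of Tekt1 (0.298 to 150). Tekt1 and Cfap46 had ratios that differed by 1.07 times (0.364 to 3.26). Each of these intervals included 1, and their width shows that large differences between the genes could not have been seen at this depth.

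**Figure D2:**
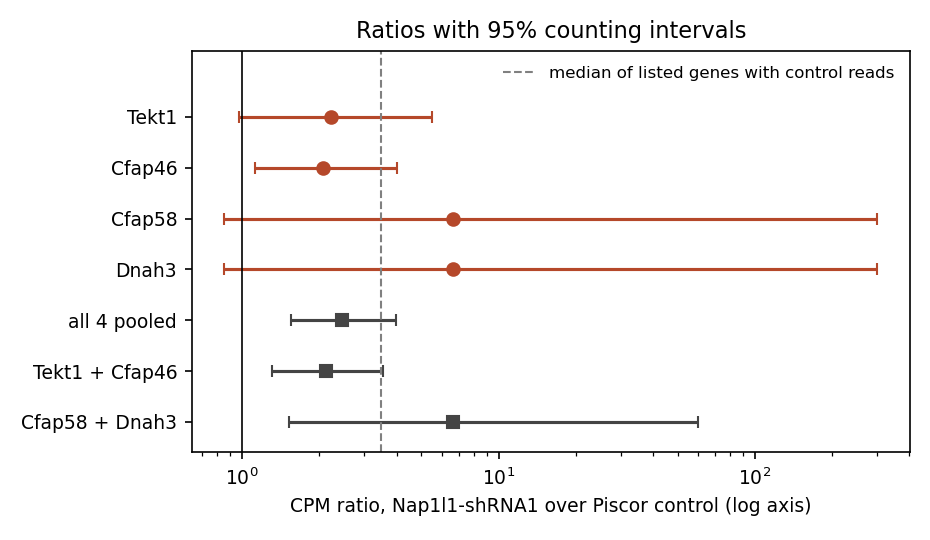
CPM ratio of Nap1l1-shRNA1 over Piscor control on a log axis, for each gene (red circles) and for sums of genes (grey squares), with exact 95% counting intervals; the solid line marks a ratio of 1 and the dashed line the median of the 119 listed genes with control reads. Cfap46 is the 1 single gene whose bar stays right of 1, and the bars of Cfap58 and Dnah3 reach from 0.853 to 299.

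Set beside all listed genes, Tekt1 and Cfap46 had ratios near the low end, and Cfap58 and Dnah3 had ratios above the median. These positions are partly fixed by the listing, whose lowest ratio differed by control count. With 1 control read it was 6.64, the value of Cfap58 and Dnah3. With 9 control reads it was 2.21, the value of Tekt1, and with 16 it was 2.02. The interval lay above 1 for 1 of the 4 members, Cfap46, and for 95 of all 158 listed genes (60.1%). On log2(CPM + 1), which damps the change of genes with few reads, 0 of the 4 were higher by at least 2-fold, against 10 of the 158 (6.33%). The difference on that scale was 0.70 for Tekt1, 0.77 for Cfap46 and 0.68 for each of Cfap58 and Dnah3, with a median of 0.69 over the 4 and of 0.77 over the 158. Among the 119 listed genes with control reads, whose ratios ran from 2.02 to 14.2 with a median of 3.48, Cfap46 ranked 115 and Tekt1 105 by ratio, counted from the highest, while Cfap58 and Dnah3 shared rank 20 with other genes of the same counts.

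The 4 genes took 70 of the 2214 reads of listed genes in the shRNA library, a share of 3.16% (exact Clopper-Pearson 95% interval 2.47 to 3.98), and 27 of 644 in the control, a share of 4.19% (2.78 to 6.04). The remaining 154 listed genes together had 2144 reads against 617, a ratio of 3.30 (3.01 to 3.61), above the 2.46 of the cilium genes but inside its interval. All these genes were selected for a high ratio in the same libraries, so neither ratio describes the genes of these cells at large.

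In the authors' deposited table none of the 4 is marked significant, where 19 of the 158 listed genes (12%) are. The authors' deposited table gives Cfap46 a p of 0.012 and an adjusted p of 0.0867, and Tekt1 a p of 0.0373 and an adjusted p of 0.19, from an unnamed test of 1 library against 1. For Cfap58 and Dnah3 the authors' deposited table gives a p of 0.0294 and an adjusted p of 0.161 each. The largest adjusted p among genes marked significant in the authors' deposited table is 0.0475. Selection was at a p below 0.05 and a log2 fold change beyond 1 in size, per the design text, and the log2 fold change of Cfap46 in the authors' deposited table, 1.05, lies close to that bound, where the lowest of all listed genes is 1.01.

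Tekt1, Cfap58 and Dnah3 had the lowest shRNA counts listed for their control counts, and Cfap46 did not. Of the 4 listed genes with 9 control reads, none had fewer shRNA reads than the 21 of Tekt1, and the highest had 26. Of the 34 listed genes with 1 control read, none had fewer shRNA reads than the 7 of Cfap58 and Dnah3, and the highest had 15. Of the 3 listed genes with 16 control reads, the lowest had 34 shRNA reads and Cfap46, with 35, was at the highest count. Genes just outside the listing were not analysed here.

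**Figure D3:**
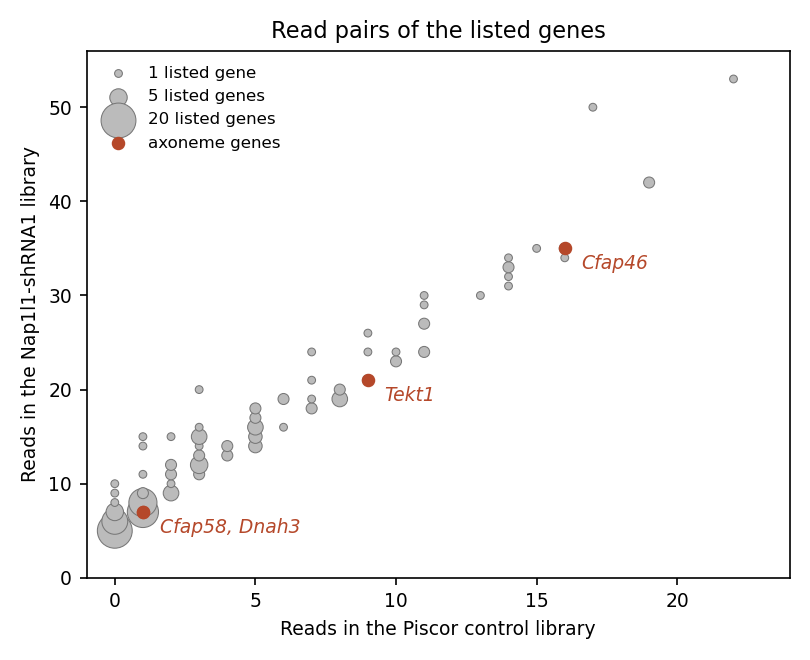
Reads in the Piscor control library (horizontal axis) against reads in the Nap1l1-shRNA1 library (vertical axis) for the 158 listed genes; the area of a grey circle stands for the number of genes with that pair of counts, and red points are the 4 cilium genes. The red points lie at 1 and 7, 9 and 21, and 16 and 35 reads, and no listed gene with 1 or 9 control reads lies below them.

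Per exon length the order of the 4 genes was another one than by reads, since their transcripts differ widely in size. The annotated exons (GENCODE M21, GRCm38) cover 1622 bases in Tekt1, 9224 in Cfap46, 3500 in Cfap58 and 14305 in Dnah3, and the longest coding transcripts have 8, 59, 18 and 61 exons. Tekt1 had the highest level, 1.47 CPM per kb of exon in the shRNA library (0.913 to 2.25) and 0.667 in the control (0.305 to 1.27). Cfap46 followed with a level of 0.432 CPM per kb (0.301 to 0.601) and 0.208 (0.119 to 0.338). Cfap58 had a level of 0.228 CPM per kb (0.0916 to 0.469) and 0.0343 (8.7e-04 to 0.191). The motor gene Dnah3 was lowest, at a level of 0.0557 CPM per kb (0.0224 to 0.115) and 0.0084 (2.1e-04 to 0.0468). Its 8 reads in both libraries together were 0.559 reads per kb of exon, against 18.5 for Tekt1.

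The order was the same in both libraries, and some neighbours in it differed beyond counting error. How evenly reads covered transcripts of such different length was not checked, and the intervals do not include it. The level per kb of Tekt1 was 3.41 times that of Cfap46 in the shRNA library (exact 95% interval 1.89 to 6.03) and 3.20 times in the control (1.25 to 7.69). Cfap46 and Cfap58 did not differ beyond counting error in either library, with level ratios of 1.90 (0.830 to 5.06) and 6.07 (0.943 to 255). Cfap58 and Dnah3 had equal counts, 7 reads each in the shRNA library and 1 each in the control. The level of Cfap58 was therefore 4.09 times that of Dnah3 in both libraries, from exon length alone, and their order could not differ between the libraries. The counting interval of this ratio ran from 1.22 to 13.7 in the shRNA library and from 0.0521 to 321 in the control. Per length of the longest coding transcript in place of all exons, the order was kept, with level ratios in the shRNA library of 3.51, 2.05 and 3.65.

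**Figure D4:**
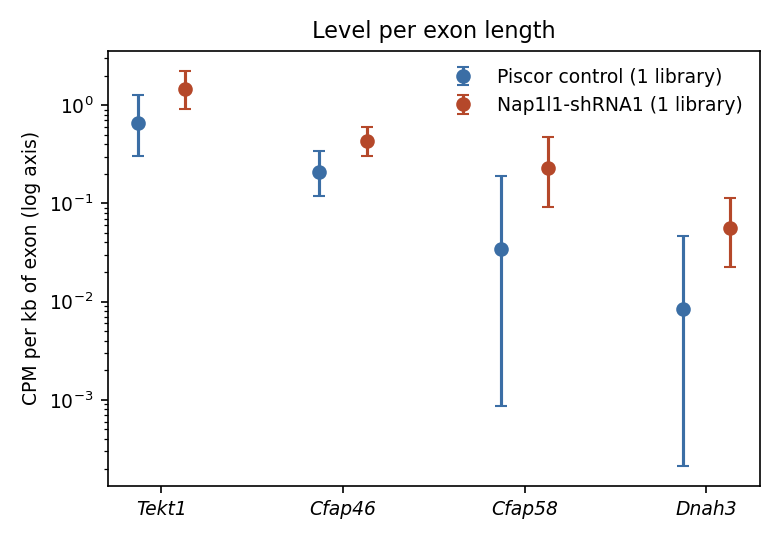
Level of each gene as CPM per kb of annotated exon on a log axis, in the Piscor control library (blue) and the Nap1l1-shRNA1 library (red), with bars from the exact 95% Poisson intervals of the reads. Both series of points fall from Tekt1 (0.667 and 1.47) to Dnah3 (0.0084 and 0.0557), and the control bars of Cfap58 and Dnah3, with 1 read each, span over an order of magnitude.

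Annotation bears on what the counts hold. The positions in the table equal those of GENCODE M21 for Tekt1 and Cfap46 and lie within the annotated gene for Cfap58 and Dnah3. The exons of Dnah3 share 1506 bases (10.5% of its exon bases, all of them coding) with Lyrm1, a protein-coding gene on the opposite strand, between 119936970 and 119956203. The sources used give no strand setting, so that part of the 8 Dnah3 reads could belong to Lyrm1, whose own counts were not analysed here. No exon of another annotated gene overlaps those of Tekt1, Cfap46 or Cfap58. How reads that match several genes were counted is also not given, and axonemal dynein heavy chains are a family of similar genes.

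The rest of the motile cilium programme was mostly not among the genes analysed. The 10 role lists of cilium genes held 164 annotated genes, the members included, and the 4 members were the 4 of them in the table: 1 of 5 tektins (Tekt1), 1 of 15 axonemal dynein heavy chains (Dnah3), and 2 of 25 named as cilia and flagella associated proteins (Cfap46 and Cfap58), Cfap46 being also the 1 of 14 central apparatus genes. No gene was listed of 9 dynein intermediate and light chains, 16 docking and assembly factors, 22 radial spoke and nexin-dynein link genes, 14 regulators that include Foxj1 and the RFX genes, 7 centriole amplification genes or 42 genes of intraflagellar transport and the primary cilium. The table holds selected genes, so the levels of those genes were not analysed here and they were not read as unchanged. The list sizes count symbols found in the annotation: 9 of 13 dynein intermediate and light chains and 16 of 25 docking and assembly factors. Likewise 5 of 7 tektins and 25 of 30 cilia and flagella associated proteins were found. Symbols not found were not searched under other names.

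Markers of cells that carry motile cilia gave 1 listed gene. Of 19 ependymal and multiciliated cell markers, Meig1, known from sperm formation and from ciliated cells, was in the table. It was also the 1 listed gene from a short list of 13 sperm and testis genes. That list does not cover all such genes, so the table may hold others. Meig1 had 5 reads after Nap1l1-shRNA1 and 0 with Piscor, and the lower limit of its ratio, 0.869, lies below 1. No gene of the 8 choroid plexus, 12 neural stem cell or 8 neuron markers was in the table, so the labelled cell type was not checked. Whether a change in the makeup of the cells has a part in the members' counts was not tested.

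The genes nearest to each member by their pair of log2(CPM + 1) values over the 2 libraries had the same counts or nearly so. Gpx3, a secreted glutathione peroxidase, had the 35 and 16 reads of Cfap46, and Gm37120, a locus annotated as awaiting experimental evidence, had the 21 and 9 reads of Tekt1. The next nearest were Gm29666 for Cfap46 (34 and 16 reads) and, for Tekt1, C1ql2, a secreted C1q-like protein, and Msrb2, a methionine sulfoxide reductase (20 and 8 reads each). For Cfap58 and for Dnah3, 15 genes tied at a distance of 0, each other among them, the first by symbol being Aldh8a1, an aldehyde dehydrogenase, Cdhr3, a cadherin-related protein known from ciliated airway cells, and the pseudogene Gm10269. With 2 libraries and small whole numbers, equal pairs are frequent and show no more than that.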

How the data were processed

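RNA-seq of 2 libraries was used, 1 of the Piscor control and 1 of Nap1l1-shRNA1. Per the labels' protocols, RNA was enriched with oligo(dT). HTSeq 0.6.0, Bowtie 1.0.1 and TopHat2 2.0.12 are named, per the submitters' processing notes, without roles. Genome build and strand setting are not given in the sources used here. Raw counts per Ensembl gene were deposited by the authors with CPM, a fold change, a log2 fold change and p-values, per the file headers, for 158 genes, all marked up. The control column writes Psicor and was matched to the title Piscor.

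Library totals were taken from the step of the deposited CPM. Ratios are of CPM, with exact 95% intervals from the counts. Their coverage was tested on simulated independent Poisson counts. That setting leaves out the selection of genes for a high ratio, so it does not give the coverage for these listed genes. With 1 library per group no test was made. The log2 scale has a pseudocount of 1 CPM, and 2-fold means a log2 difference of at least 1. No filter was used. Gene names were matched by Ensembl identifier for 157 genes.

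Members and lists were chosen with earlier results of these data known. Named genes were the members, listed genes of the fixed lists, the nearest genes by both levels (2, or up to 4 where tied) and genes with overlapping exons. Ccdc113, found by its ontology terms, was added after its values were seen. Python 3.11.15, SciPy 1.17.1 and pandas 2.3.3 were used.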

Additional observations from a re-analysis of the deposited data

How the results depend on the processing

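The pooled ratio of the 4 genes, 2.46, was 2.59 without scaling, 2.12 over the 2 genes with at least 10 counts, 3.77 as the geometric mean of the single ratios, and 2.30 to 3.02 without 1 gene; leaving out Tekt1, Cfap58 or Dnah3 was added after the data were seen. With median-ratio size factors over the listed genes it reversed to 0.707 (0.448 to 1.15), since this scaling centres on genes that are all higher and shifts each CPM ratio by -1.80 on the log2 scale; it shows no direction. Under it the log2 difference was -0.40 for Tekt1 and Gm37120, -0.55 for Cfap46 and Gpx3, -0.58 for Gm29666 and -0.33 for C1ql2 and Msrb2, and above 0 for the other 6 of 13 named genes. The count of members with an interval above 1, 1 of 4, was 4 with a mid-p interval, 0 with a 99% interval and 0 with size factors (155, 17 and 0 of the 158 listed genes). The mid-p count is no independent result, since the listing itself had a p threshold. The count higher by 2-fold, 0 of 4, was 4 with a pseudocount of 0.1 CPM (155 of the 158 listed genes). It was also 4 with the log2 fold change that the authors deposited (158 of 158), which is fixed by their listing. The count at 0.1 CPM is nearly fixed by it too, since a small pseudocount brings the value close to that fold change, whereas 1 CPM is large beside these levels. No library could be left out, and no paired analysis was possible because there is 1 library per group. The limits are this design, as few as 1 control read per gene, and a table of selected genes.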

Other observations

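By the gene ontology terms in the authors' deposited table, 4 listed genes carry a term of the cilium, the axoneme or the dynein arm: Cfap46, Cfap58, Dnah3 and Ccdc113. Ccdc113, which encodes a coiled-coil protein of centriolar satellites and cilia, has the term cilium assembly, is in none of the lists above and was named after its values were seen. Its counts were 5 after Nap1l1-shRNA1 (exact 95% Poisson interval 1.62 to 11.7) and 0 with Piscor (up to 3.69), or 0.57 CPM against none. The lower limit of its ratio was 0.869, so that its interval included 1, as for Meig1, which had the same counts.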
